A study of Homo sapiens with 6 samples.

Results

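Complement is a cascade of plasma proteins that marks and lyses targets, and the RNA levels of 9 of its genes were followed in human cells labelled as a liver cancer line after the long noncoding RNA SNHG17 was lowered. The 9 genes were taken from the count table by symbol. They are C3, CFB, C1R and C1S, which encode secreted components, CFI and SERPING1, which encode secreted regulators, and CD46, CD55 and CD59, which encode inhibitors on the cell surface. All 9 had a row among the 58243 genes of the table and all 9 passed the filter on low counts, among 18679 genes that did. The 9 genes were selected on their measured levels and on the difference between the groups in these same libraries, so their values are given as a description, and the adjusted p of each only places the gene within a fit of all 18679 genes.

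The cells were labelled Hep3B, an established line from a hepatocellular carcinoma, grown in DMEM with fetal bovine serum. A group of 3 libraries came from cells given the siRNA si-SNHG17-1, directed at SNHG17, and the other 3 from cells given si-NC as control. Cells of both groups were transfected, and only 1 siRNA against SNHG17 was used. Whether replicates came from separate cultures is not stated, and the p-values therefore cover only the variation among the 6 libraries, which could be technical.

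In the classical pathway the proteases C1r and C1s are bound to C1q. C1r activates C1s, and C1s cleaves C4 and C2 to form an enzyme that cleaves C3. In the alternative pathway factor B, the product of CFB, binds to C3b and forms a second enzyme of this kind, which yields more C3b. Factor I (CFI) degrades C3b with the help of cofactors such as CD46, C1 inhibitor (SERPING1) blocks C1r and C1s, CD55 speeds the decay of both C3-cleaving enzymes, and CD59 blocks the final membrane pore. Hepatocytes make most of the plasma components, and interleukin 6, interferon gamma and NF-kB signalling are known to raise several of them.

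The starts of CFB, C1R and CFI are shown because these 3 genes rose, and that of CD55 because it is the most abundant of the 9. RefSeq (GRCh38.p14) gave upstream sequence for 6 of the 9 genes, while C3, C1S and SERPING1 had no entry. Each line holds the 250 bases before a RefSeq start, 5′ to 3′ on the strand of the gene. Capitals mark matches, on either strand, to a STAT motif (TTCNNNGAA), an interferon response core (GAAANNGAA), a TATA box (TATAAA) or the NF-kB consensus.

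CFB (chr6:31945845-31946094, plus strand): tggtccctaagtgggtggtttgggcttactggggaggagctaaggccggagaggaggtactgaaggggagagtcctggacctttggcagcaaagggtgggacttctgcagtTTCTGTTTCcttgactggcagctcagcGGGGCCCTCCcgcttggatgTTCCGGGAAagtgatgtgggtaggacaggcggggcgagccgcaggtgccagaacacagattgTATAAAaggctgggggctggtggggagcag
C1R, outer start (chr12:7092446-7092695, minus strand): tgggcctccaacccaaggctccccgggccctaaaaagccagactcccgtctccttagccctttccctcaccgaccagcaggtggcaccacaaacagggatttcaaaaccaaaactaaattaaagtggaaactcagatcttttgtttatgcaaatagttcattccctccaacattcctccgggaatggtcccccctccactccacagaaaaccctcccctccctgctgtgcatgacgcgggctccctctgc
C1R, inner start (chr12:7091894-7092143, minus strand): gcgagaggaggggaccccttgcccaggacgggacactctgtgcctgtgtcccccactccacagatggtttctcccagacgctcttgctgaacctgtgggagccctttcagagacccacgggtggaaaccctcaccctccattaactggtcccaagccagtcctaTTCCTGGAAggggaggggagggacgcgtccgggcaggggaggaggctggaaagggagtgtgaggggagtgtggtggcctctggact
CFI (chr4:109802000-109802249, minus strand): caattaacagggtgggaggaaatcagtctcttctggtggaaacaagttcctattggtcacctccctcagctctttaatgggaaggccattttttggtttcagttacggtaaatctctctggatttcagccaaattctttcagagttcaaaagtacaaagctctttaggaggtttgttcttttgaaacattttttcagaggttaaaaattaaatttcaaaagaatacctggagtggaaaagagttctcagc
CD55 (chr1:207321428-207321677, plus strand): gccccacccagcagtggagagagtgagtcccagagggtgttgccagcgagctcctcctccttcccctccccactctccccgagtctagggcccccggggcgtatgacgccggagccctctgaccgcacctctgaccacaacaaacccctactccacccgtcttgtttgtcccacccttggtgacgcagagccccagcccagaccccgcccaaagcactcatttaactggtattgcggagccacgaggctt

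The CFB window held a match to each of the 4 motifs. They were the interferon response core at 139 to 131 bases before the start, on the opposite strand, the NF-kB consensus at 112 to 103, the STAT motif at 92 to 84 and the TATA box at 30 to 25. The inner C1R window held a STAT match at 86 to 78 bases before its start. The outer C1R window and those of CFI, CD55 and CD46 held none of these letters. A STAT match was also found in 2 overlapping windows of CD59, which was not called, at 184 to 176 and at 128 to 120 bases before their starts. Among 35116 windows of the same length over all genes, 6.57% held the STAT motif, 6.88% the interferon response core, 10.7% the TATA box and 9.96% the NF-kB consensus. A match is a run of letters and not a shown binding site. The CFB gene of GENCODE 29 begins at 31945650, upstream of the RefSeq window shown. In the count table C1R, on the minus strand, begins at 7092607. Its inner window therefore lies inside the gene and its outer window partly so. CFI begins at 109802179 and CD55 at 207321508, each within the window shown.

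SNHG17 itself was lower in every si-SNHG17-1 library than in any si-NC library, with counts of 843, 953 and 948 in si-NC and 307, 338 and 254 after si-SNHG17-1. On the CPM scale (counts relative to the TMM-scaled library total) 35.2% ± 0.605 (SD, n = 3) of the si-NC level was left, with a log2 fold change of −1.51 ± 0.12 (standard error) and an edgeR adjusted p of 0.00101. An exact two-sided permutation test gave p = 0.1, the smallest that 3 against 3 libraries allow. Total counts ranged from 30207055 to 42271168 per library. Of 10 hepatocyte markers, SERPINC1, TTR and GPC3 had 0 counts in all libraries, which at the shallowest library still permits 0.0977 CPM (counting error only). AFP did not exceed 0.214 CPM and ALB did not exceed 0.811 CPM, so the defining hepatocyte markers go against the label, and the cells are called by their label only. The 10 markers summed to 1.99 to 2.89 CPM in si-NC and 2.87 to 4.58 CPM after si-SNHG17-1.

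C3 fell after si-SNHG17-1, while CFB and C1R rose, and CFI rose with a call that did not survive the loss of any library. Fitted changes were 1.35-fold lower for C3 and 1.49-fold, 1.8-fold and 1.54-fold higher for CFB, C1R and CFI. C1S, SERPING1 and the membrane inhibitors CD46, CD55 and CD59 did not pass the test at an adjusted p under 0.05. So 3 of the 9 genes were called higher and 1 lower, where 5.25% of all tested genes were called higher, 5.21% lower and 10.5% in either direction. The median log2 fold change was 0.60 over the 6 secreted genes and −0.10 over the 3 inhibitors, against −0.00 over all tested genes. The CPM of the groups did not overlap for 7 of the 9 genes, as for 33.7% of all tested genes. Since the genes were chosen with these values known, nothing is read from these shares. In bulk RNA, fewer cells that carry a transcript and less of it per cell cannot be told apart.

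**Figure D1:**
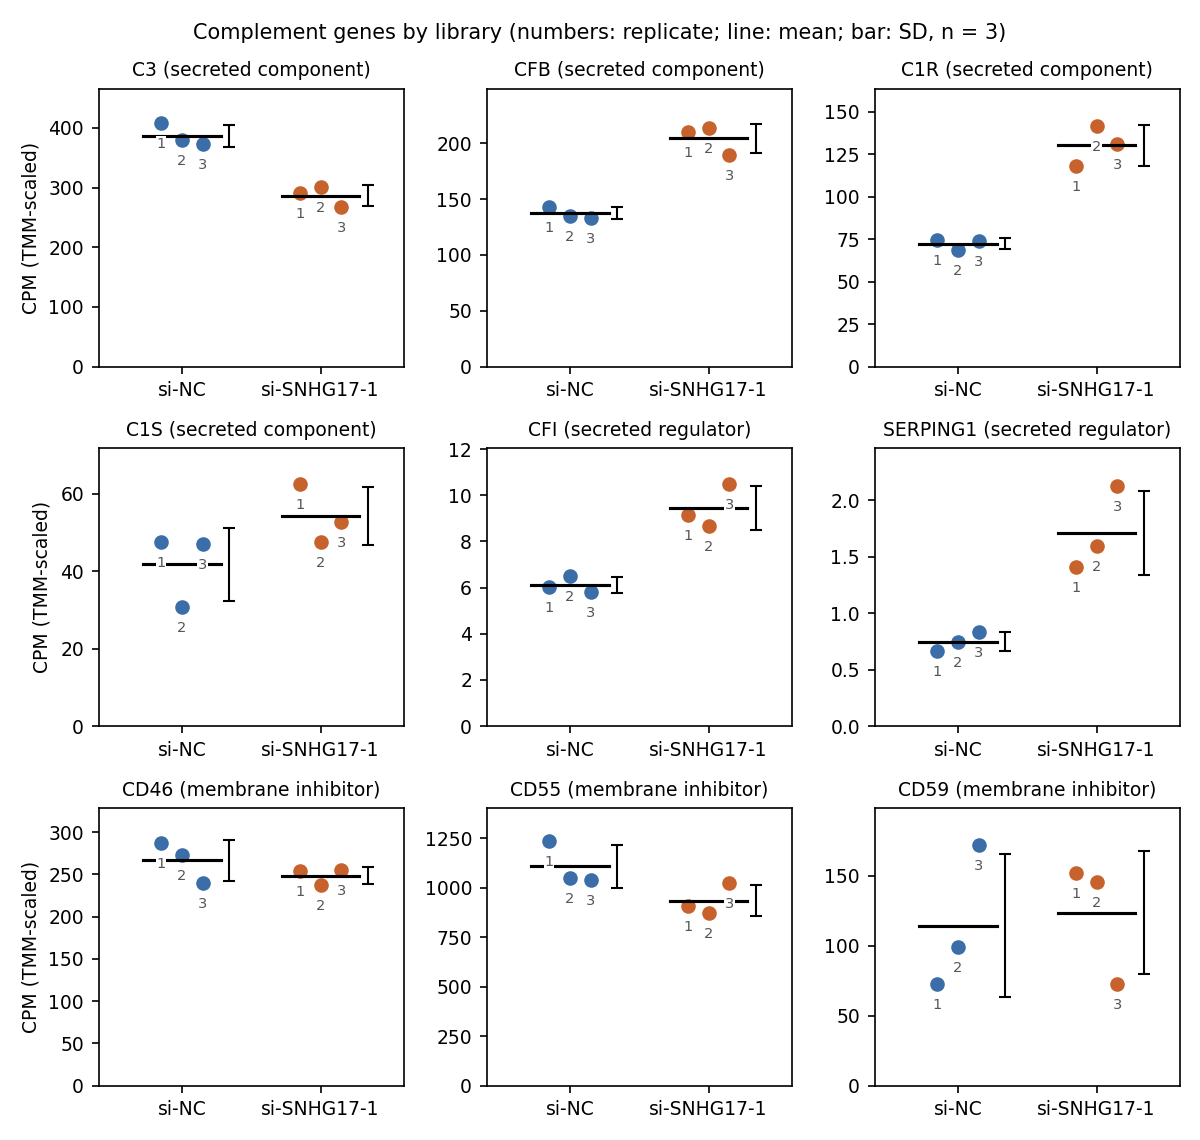
Level of each of the 9 complement genes in every library, in TMM-scaled CPM on a linear axis from 0, with si-NC on the left and si-SNHG17-1 on the right of each panel. Points carry the replicate number, lines are means and bars are SDs (n = 3). C3 is lower and CFB, C1R, CFI and SERPING1 are higher in all 3 si-SNHG17-1 libraries, while CD46 and CD59 overlap.

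C3 (ENSG00000125730.16, chromosome 19, 6677704 to 6730562, minus strand, GRCh38), the protein on which all complement pathways converge, was the most abundant secreted gene of the 9 in si-NC per kilobase of exon. Its levels were 408, 379 and 373 CPM in si-NC and 291, 301 and 267 CPM after si-SNHG17-1. Every si-SNHG17-1 library was below every si-NC library, and the gap between the groups was wider than the spread within either. The mean went from 387 ± 18.9 to 286 ± 17.4 CPM (SD, n = 3 each), a log2 fold change of −0.43 ± 0.07 SE (edgeR adjusted p = 0.0127). Without si-SNHG17-1 replicate 1 the log2 fold change was −0.44 and the call was lost (edgeR adjusted p = 0.0643). No annotated exon of another gene overlaps those of C3 in GENCODE 29.

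CFB (ENSG00000243649.8, chromosome 6, 31945650 to 31952084, plus strand) stood at 143, 135 and 133 CPM in si-NC. After si-SNHG17-1 it stood at 210, 214 and 190 CPM, so that the lowest of these libraries was above the highest si-NC library. The mean went from 137 ± 5.27 to 204.5 ± 13 CPM (SD, n = 3 each), a log2 fold change of 0.58 ± 0.08 SE (edgeR adjusted p = 0.00562). The call held in all 13 alternative fits, at log2 fold changes of 0.55 to 0.64. CFB shares 2249 exonic bases on its strand with AL645922.1, which read 0, 24 and 0 counts in si-NC and 38, 12 and 0 after si-SNHG17-1. Those counts are small beside the 5291 to 9008 counts of CFB.

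C3 and CFB encode the partners of the alternative pathway enzyme, and they went in opposite directions in the same libraries. Per kilobase of annotated exon, the ratio of CFB to C3 was 0.584, 0.593 and 0.596 in si-NC. After si-SNHG17-1 it was 1.20, 1.18 and 1.18, so CFB transcripts per length went from below to above those of C3. The mean ratio was 0.591 ± 0.00608 in si-NC and 1.19 ± 0.0126 after si-SNHG17-1 (SD, n = 3 each). Within each group the ratio had a smaller spread relative to its mean than either gene alone. A ratio within a library does not depend on how the libraries were scaled, but it does depend on the length used. With the longest transcript as the length, CFB stood at 47.9 ± 1.84 against 73.5 ± 3.59 CPM per kilobase for C3 in si-NC and at 71.5 ± 4.53 against 54.4 ± 3.31 after si-SNHG17-1.

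**Figure D2:**
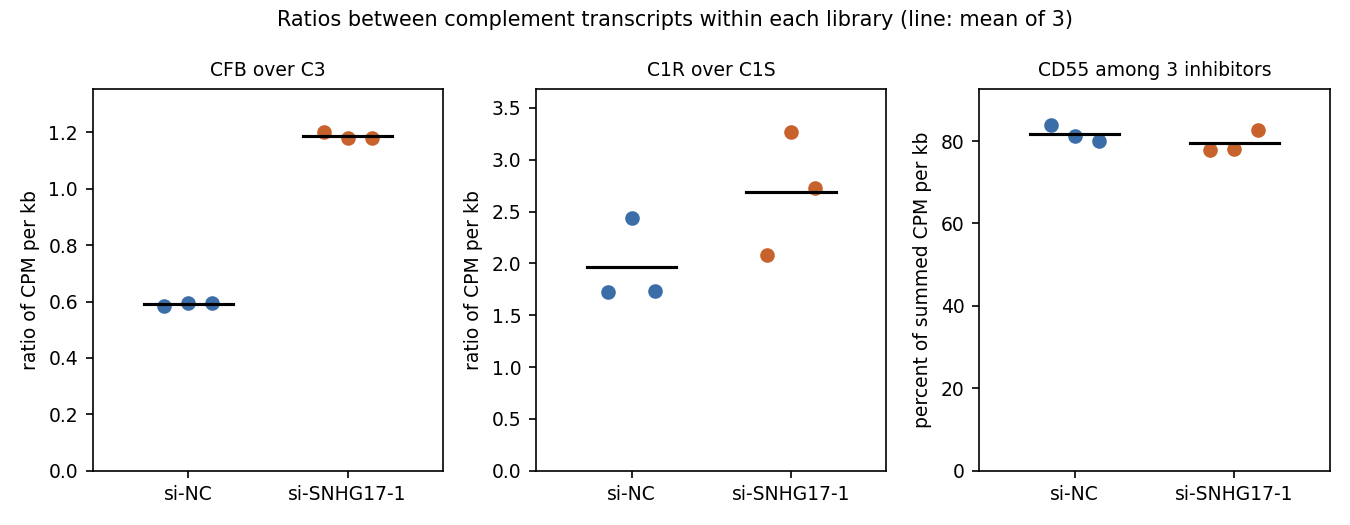
Ratios within each library, from CPM per kilobase of annotated exon, on linear axes from 0: CFB over C3, C1R over C1S, and CD55 as a percent of the sum of CD46, CD55 and CD59. Points are libraries and lines are means of 3; CFB over C3 lies between 0.584 and 0.596 in si-NC and between 1.18 and 1.20 after si-SNHG17-1, and CD55 makes up 77.8% to 83.9% in all 6 libraries.

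C1R (ENSG00000159403.15, chromosome 12, 7080209 to 7092607, minus strand) had the largest called rise of the 9 genes. It went from 74.4, 68.5 and 73.8 CPM in si-NC to 118, 142 and 131 CPM after si-SNHG17-1, with no overlap. The mean rose from 72.2 ± 3.23 to 130.2 ± 11.9 CPM (SD, n = 3 each), a log2 fold change of 0.85 ± 0.09 SE (edgeR adjusted p = 0.00302). The call held in all 13 alternative fits, at 0.79 to 0.93. C1RL, a related protease gene that shares 672 exonic bases with C1R on the same strand, was at 43.4 CPM in si-NC and 40.1 CPM after si-SNHG17-1 (log2 difference −0.12 ± 0.11 SE, not called).

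C1S (ENSG00000182326.14, chromosome 12, 6988259 to 7071032, plus strand) encodes the protease that C1r activates, and the gene lies 9.18 kb from C1R on the opposite strand. Its levels were 47.5, 30.8 and 47.0 CPM in si-NC and 62.4, 47.6 and 52.7 CPM after si-SNHG17-1. The lowest si-SNHG17-1 library was barely above the highest si-NC library, and si-NC replicate 2 stood well below the other libraries. The log2 fold change was 0.38 ± 0.19 SE with a 95% interval of −0.06 to 0.81, which did not pass the test (edgeR adjusted p = 0.245). Without si-NC replicate 2 it was 0.20. The ratio of C1R to C1S per kilobase was 1.72, 2.44 and 1.73 in si-NC and 2.08, 3.27 and 2.73 after si-SNHG17-1, and these ranges overlap. C1S shares 229 exonic bases with EMG1 on the same strand. The more abundant EMG1 entry read 2686, 3080 and 3279 counts in si-NC and 2804, 3202 and 2043 after si-SNHG17-1. C1S read 1788, 1286 and 1863 counts in si-NC and 2383, 2005 and 1620 after si-SNHG17-1. Reads given to the wrong gene could therefore affect the level of C1S and its ratio to C1R.

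Of the secreted regulators, CFI (ENSG00000205403.12, chromosome 4, 109740694 to 109802179, minus strand) was at 6.02, 6.51 and 5.80 CPM in si-NC and at 9.16, 8.66 and 10.5 CPM after si-SNHG17-1. The groups did not overlap, and the log2 fold change was 0.63 ± 0.15 SE (edgeR adjusted p = 0.0418). The call was lost when any of the 6 libraries was left out, at log2 fold changes of 0.56 to 0.69 and adjusted p up to 0.124. CFI shares 1562 exonic bases with AC126283.2 on its strand, a gene with no row under that symbol in the count table.

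SERPING1 (ENSG00000149131.15, chromosome 11, 57597387 to 57614853, plus strand) was the least abundant of the 9 genes, with 25, 31 and 33 counts in si-NC and 54, 67 and 65 after si-SNHG17-1. These were 0.663, 0.742 and 0.832 CPM against 1.41, 1.59 and 2.12 CPM, again without overlap. The log2 fold change of 1.19 ± 0.32 SE was the largest of the 9, but it did not pass the test (95% interval 0.44 to 1.94, edgeR adjusted p = 0.0576). When only genes with at least 1 CPM in 3 libraries were tested, the adjusted p was 0.0441. At these counts, counting error is larger relative to the level than for the other 8 genes.

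None of the 3 membrane inhibitors was called by edgeR, DESeq2 or limma-voom, and 1 of them, CD55, had an unadjusted edgeR p under 0.05. CD55 (ENSG00000196352.14, chromosome 1, 207321508 to 207386804, plus strand) was at 1234, 1051 and 1040 CPM in si-NC and at 907, 873 and 1025.5 CPM after si-SNHG17-1. All 3 si-SNHG17-1 libraries were below the si-NC libraries, by a narrow margin for si-SNHG17-1 replicate 3. The log2 fold change was −0.24 ± 0.09 SE with a 95% interval of −0.46 to −0.03. Over all genes the edgeR adjusted p of CD55 was 0.131.

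CD46 (ENSG00000117335.19, chromosome 1, 207752057 to 207795513, plus strand), which lies 365 kb from CD55, was at 287, 272 and 240.1 CPM in si-NC. After si-SNHG17-1 it was at 254, 237 and 255 CPM, within or just below the si-NC range. The log2 fold change was −0.10 ± 0.08 SE with a 95% interval of −0.30 to 0.09 (edgeR adjusted p = 0.504).

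CD59 (ENSG00000085063.14, chromosome 11, 33698261 to 33736445, minus strand) varied more between replicates than any of the other 8 genes. It stood at 72.6, 99.2 and 172 CPM in si-NC and at 152, 146 and 73.0 CPM after si-SNHG17-1. The low libraries were si-NC replicate 1 and si-SNHG17-1 replicate 3, and the groups covered nearly the same range. The log2 fold change was 0.11 ± 0.36 SE with a 95% interval of −0.74 to 0.96 (edgeR adjusted p = 0.887), which spans changes in both directions. With a library left out it ranged from −0.13 to 0.52. CD59 shares 629 exonic bases with AL049629.2 on its strand, a gene with no row under that symbol in the count table.

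Ordered by mean CPM per kilobase of annotated exon in si-NC, CD55 stood first at 188 ± 18.4, followed by C3 at 46.5 ± 2.27, CD46 at 30.6 ± 2.77 and CFB at 27.4 ± 1.05 (SD, n = 3). C1R followed at 12.3 ± 0.549, CD59 at 11.1 ± 4.96, C1S at 6.46 ± 1.47, CFI at 1.25 ± 0.0749 and SERPING1 at 0.207 ± 0.0234. The neighbours C1R and CD59, and CD59 and C1S, overlapped between libraries, as did CD46 and CFB. After si-SNHG17-1 CFB at 40.9 ± 2.60 stood above C3 at 34.4 ± 2.09 and CD46 at 28.5 ± 1.1, and the first place stayed with CD55 at 158 ± 13.5. With the longest transcript as the length, 7 of the 9 genes kept their place in si-NC, and CFB stood above CD46. The lengths of C1R, CFI, CD55 and CD59 are less certain, since their counted gene models differ from GENCODE 29 in version or coordinates. C3 made up 48.3% to 50.3% of the summed level of the 6 secreted genes per kilobase in si-NC and 31.1% to 32.1% after si-SNHG17-1. C1R went from 12.8% to 13.5% of that sum in si-NC to 18.4% to 21.6%.

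The genes with the most similar pattern were sought by Pearson's r of log2 CPM over the 6 libraries, among 10261 genes. For C3 they were CSTF2, HSPG2 and DAP3 (r = 0.998, 0.998 and 0.996), with log2 fold changes of −0.69, −0.58 and −0.30. For CFB they were PITHD1, PAPPA and PITPNM3 (r = 0.999, 0.998 and 0.996), with 0.55, 0.52 and 0.49. For CD55 the most similar gene was ZMYM4 (r = 0.996), with a log2 fold change of −0.19 that was not called. All genes compared share the same 6 libraries and the contrast between groups, so such values describe likeness only.

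Of 52 other complement genes, 20 could be tested, of which 3 were called higher and 2 lower. Over all tested genes 5.25% were called higher and 5.21% lower. These shares stand beside the counts of every list that follows, and nothing is read from those counts. They hold for adjusted p only. For counts at an unadjusted p, here and above, the share over all tested genes was not taken and would be larger. The median log2 fold change of the 20 was −0.32, against −0.00 over all tested genes, and 16 of the 20 had a negative value. A further 17 had 0 counts in every library, among them those of the C1q chains (C1QA, C1QB and C1QC), MBL2 and the terminal components C6, C7, C8A and C8B. C1r and C1s transcripts were thus present in cells with no count for the C1q chains.

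Among other classical and lectin pathway components, 2 of 6 tested rose and none fell, while 1 was lower at an unadjusted edgeR p under 0.05 and none by DESeq2 or limma-voom. The latter was MASP1, a protease gene of the lectin pathway, at a mean of 1.71 CPM in si-NC and 0.998 CPM after si-SNHG17-1. The risen genes were C4A and C4B, which encode C4. C4A went from 10.7, 9.17 and 10.1 CPM to 15.5, 14.8 and 13.8 CPM, by 0.56 ± 0.13 SE on the log2 scale (edgeR adjusted p = 0.0401). C4B went from 9.79, 9.39 and 9.96 CPM to 16.0, 15.1 and 12.6 CPM, by 0.59 ± 0.14 SE (edgeR adjusted p = 0.0426). The copies are near-identical, so reads may be split between them, and both calls were lost whichever library was left out (adjusted p of 0.0538 to 0.143). They lie 29.9 and 62.7 kb from CFB on chromosome 6. C2, which borders CFB and shares 23 exonic bases with it, was at 4.65 ± 0.482 CPM in si-NC and 3.40 ± 0.836 CPM after si-SNHG17-1, a log2 difference of −0.45 ± 0.23 SE that was not called.

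Of 3 tested genes of the other alternative pathway and terminal components none was called by edgeR, limma-voom or DESeq2 (which gave 2 of them an adjusted p), and 1 was lower at an unadjusted edgeR p under 0.05. That was CFD, which encodes factor D, the protease that cleaves factor B, at 15, 15.4 and 19.6 CPM in si-NC and 14.1, 13.1 and 10.7 CPM after si-SNHG17-1, a log2 difference of −0.40 ± 0.17 SE (edgeR adjusted p = 0.182). C5, whose cleavage starts the membrane pore, was at 2.31 CPM in si-NC and 1.68 CPM after si-SNHG17-1 on average.

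Among the other soluble regulators 1 of 6 tested fell, and none rose by edgeR, also at an unadjusted p under 0.05, or by DESeq2 or limma-voom. C4BPB, which encodes the beta chain of C4b-binding protein, went from 181, 154 and 155 CPM to 112, 117 and 115 CPM, without overlap, a log2 difference of −0.51 ± 0.09 SE (edgeR adjusted p = 0.0122). The call was lost without si-SNHG17-1 replicate 1 or 3 (adjusted p = 0.063 and 0.0504). CLU, which encodes clusterin, was at 164 ± 31.3 CPM in si-NC and 116 ± 13.9 CPM after si-SNHG17-1 (SD, n = 3 each). Its edgeR adjusted p was 0.0788, while DESeq2 called it lower.

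Among receptors and other membrane regulators 1 of 5 tested rose and 1 fell, and both encode proteins that bind C1q and also serve inside the cell. CALR, which encodes the endoplasmic reticulum chaperone calreticulin, had 932 ± 2.22 CPM in si-NC and rose to 1440 ± 122.5 CPM, by 0.63 ± 0.07 SE on the log2 scale (edgeR adjusted p = 0.00311). C1QBP, which encodes a mitochondrial protein also described as a receptor for C1q, fell from 235 ± 6.30 to 168 ± 6.13 CPM (−0.48 ± 0.07 SE, edgeR adjusted p = 0.0064). Both calls held in all 13 alternative fits. The receptors C3AR1, C5AR1 and C5AR2 and the inhibitor CR1 stayed at or below 1.49 CPM in every library.

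**Figure D3:**
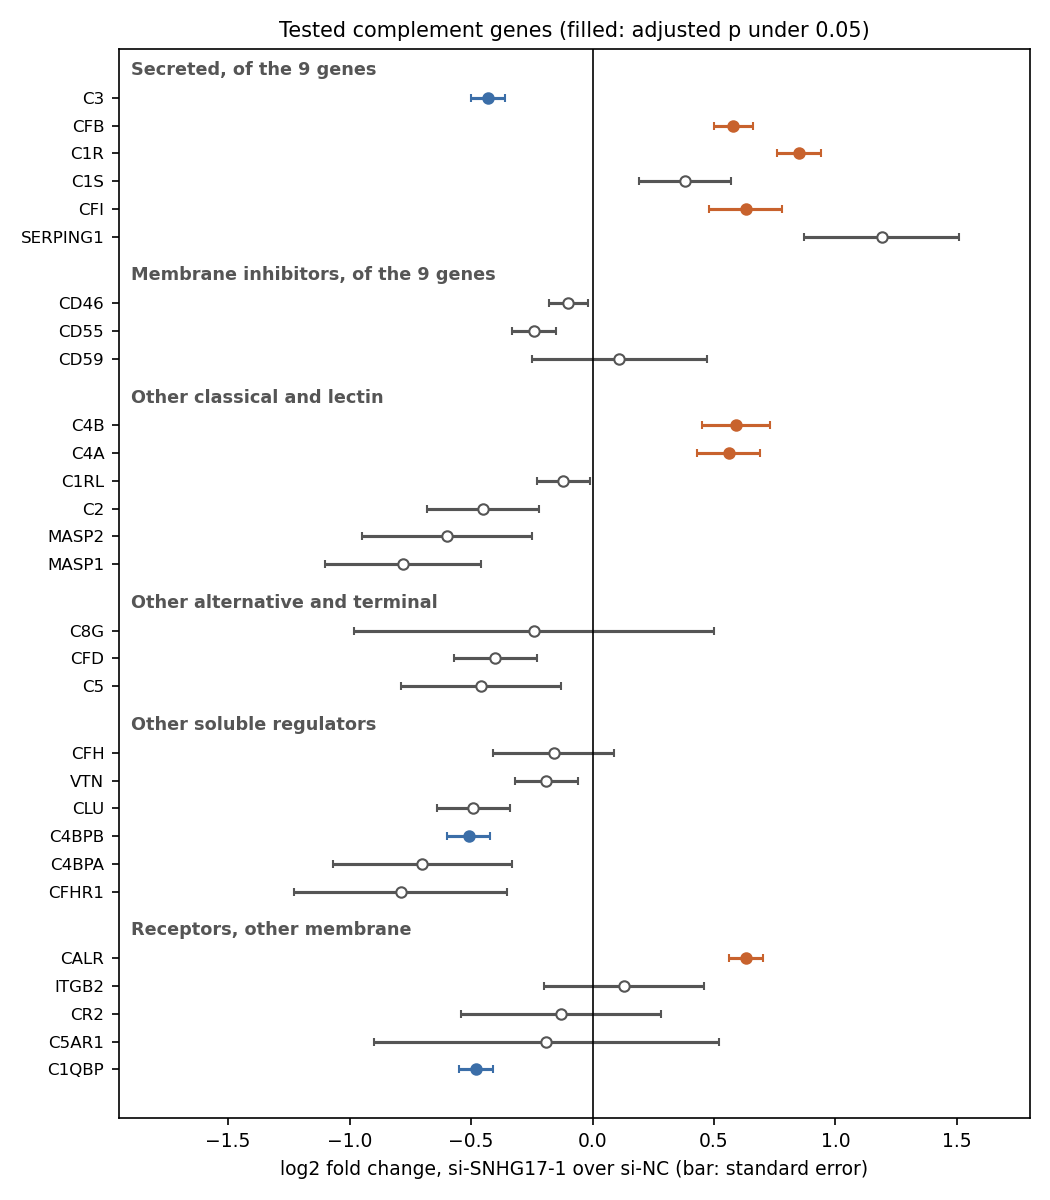
Log2 fold change of si-SNHG17-1 over si-NC for the 29 complement genes that could be tested, by role, with bars of 1 standard error. Filled points had an edgeR adjusted p under 0.05 (orange higher, blue lower); CFB, C1R, CFI, C4A, C4B and CALR are filled to the right of 0, and C3, C4BPB and C1QBP to the left.

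Of 28 cytokine signalling genes known to act upstream of complement genes, 4 rose and 2 fell, and the median log2 difference was −0.03. Over all tested genes 10.5% were called in either direction. At an unadjusted edgeR p under 0.05, 7 of the 28 were higher and 6 lower. The 10.5% is no measure for this count, since it is the share at an adjusted p, and nothing is read from the count. IL6, which encodes interleukin 6, was at 78.0, 99.4 and 94.6 CPM in si-NC and at 182, 182 and 189 CPM after si-SNHG17-1, a log2 difference of 1.02 ± 0.10 SE (edgeR adjusted p = 0.00237). IL6R, which encodes its receptor, went from 11.7 ± 0.415 to 27.0 ± 2.72 CPM (1.21 ± 0.13 SE, edgeR adjusted p = 0.00265). SOCS3, a feedback inhibitor of this pathway, went from 57.8 ± 4.10 to 82.6 ± 2.32 CPM (0.52 ± 0.09 SE, edgeR adjusted p = 0.012). SOCS1, another feedback inhibitor, had lower levels and no call, with means of 1.93 CPM in si-NC and 0.839 CPM after si-SNHG17-1 (log2 difference −1.20). STAT3, the transcription factor of the pathway, named after its value was seen, rose by 0.26 on the log2 scale (edgeR adjusted p = 0.0403). The call of STAT3 was not followed through the alternative fits. Also on this list, IL6ST, JAK2, LIF and OSMR were not called (log2 differences of 0.07, 0.17, −0.25 and −0.04). The call of SOCS3 was lost without si-SNHG17-1 replicate 1 or 2 (adjusted p = 0.0603 and 0.0564).

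The kinase gene JAK1 and the NF-kB subunit gene NFKB2 fell (log2 fold changes of −0.45 and −0.37, edgeR adjusted p = 0.01 and 0.0242), and each lost its call when certain libraries were left out. Without si-SNHG17-1 replicate 1 the adjusted p was 0.0524 for JAK1 and 0.116 for NFKB2, and leaving out replicate 3 of si-NC (0.0684) or of si-SNHG17-1 (0.0979) also ended the call of NFKB2. Of 18 acute phase protein genes, which the liver raises in inflammation, 12 were under 1 CPM in both groups and 8 could be tested. AGT was the only one called, from 3.87 ± 1.30 to 11.9 ± 0.802 CPM (1.62 ± 0.24 SE, edgeR adjusted p = 0.00865). Whether the complement genes moved through these signals was not tested.

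CD55 and CD59 are held in the membrane by a glycosylphosphatidylinositol (GPI) anchor. Of 26 tested genes that make or attach this anchor, 2 rose and 1 fell, around a median log2 difference of 0.04. The share called over all tested genes was 10.5%, and nothing is read from the count of this list. GPAA1 and PIGS encode subunits of the enzyme that attaches the anchor, and they went in opposite directions. GPAA1 rose from 70.7 ± 4.80 to 101.0 ± 2.69 CPM, and PIGS fell from 92.1 ± 8.54 to 57.5 ± 2.73 CPM. DPM2, a subunit of the mannose donor synthase, rose by 0.52 on the log2 scale (edgeR adjusted p = 0.0181). The log2 fold changes of GPAA1 and PIGS were 0.51 ± 0.08 and −0.68 ± 0.10 SE (edgeR adjusted p = 0.0105 and 0.00681). Without si-SNHG17-1 replicate 1 GPAA1 lost its call, at an adjusted p of 0.0527. DPM2 kept its call in 2 of the 6 fits with a library left out. Also on this list, PIGT, PIGU and PIGK were not called (log2 differences of −0.16, 0.20 and 0.46).

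Markers of other cell types were read beside these genes, since fibroblasts and macrophages also make complement. Of 8 fibroblast and stellate markers, COL1A1 and COL3A1 rose (log2 fold changes of 0.36 and 0.52, edgeR adjusted p = 0.0485 and 0.0175). These 2 calls were not followed through the alternative fits. DCN (0.86, edgeR adjusted p = 0.0511) and PDGFRB (−0.28) were not called. At an unadjusted edgeR p under 0.05, and by DESeq2, 3 of the list were higher and 0 lower. COL1A2 had 0 counts in every library and THY1 did not exceed 0.429 CPM. The summed level of the 8 markers was 196 to 217 CPM in si-NC and 262 to 274 CPM after si-SNHG17-1. Of 8 monocyte and macrophage markers none was called by edgeR, though 2 were higher at an unadjusted p under 0.05 and by DESeq2, and none by limma-voom. That list summed to 37.6 to 44.0 CPM and 49.0 to 67.2 CPM, mostly CD68, with CD163 and AIF1 at 0 counts. Of 5 endothelial markers CDH5 rose (1.79, edgeR adjusted p = 0.0135) and KDR had 0 counts. PECAM1 went the other way without a call, with a mean of 1.37 CPM in si-NC and 0.592 CPM after si-SNHG17-1, and was the 1 marker of this list that was lower at an unadjusted edgeR p under 0.05. The sums of the endothelial list were 2.77 to 4.41 CPM and 6.32 to 8.22 CPM. The part of such markers in the complement changes was not tested.

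**Figure D4:**
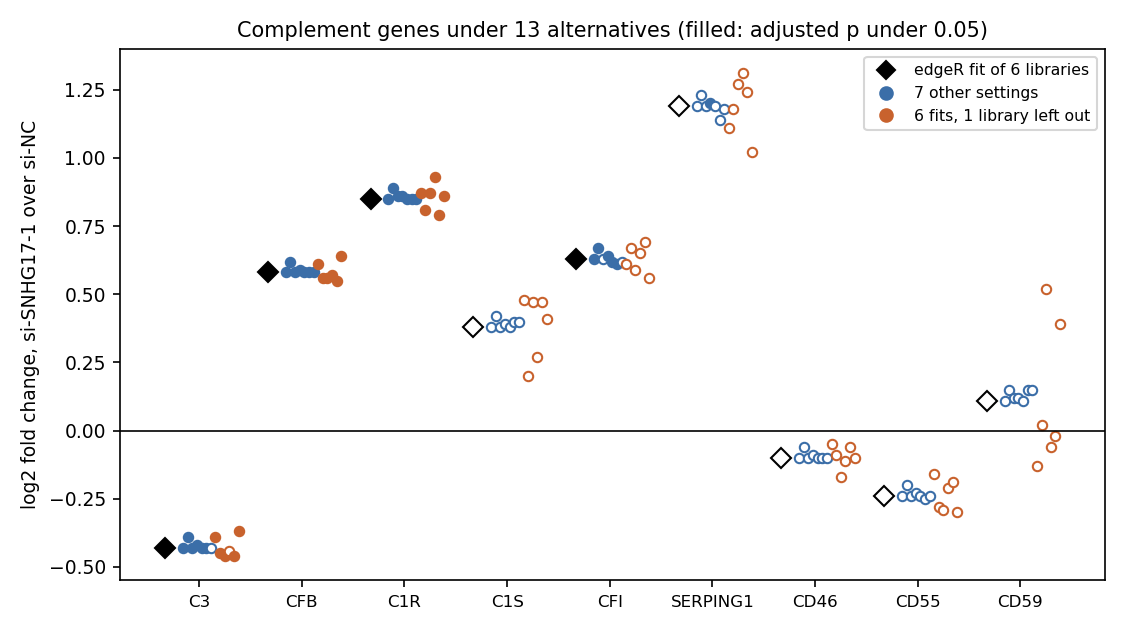
Log2 fold change of each of the 9 genes in the edgeR fit of 6 libraries (black diamonds), in 7 other settings (blue) and in 6 fits with 1 library left out (orange), filled where the adjusted p is under 0.05. CFB and C1R are filled throughout, C3 in 11 of 13 alternatives and CFI in 5, while CD59 ranges from −0.13 to 0.52 and crosses 0.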

How the data were processed

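RNA was sequenced from 3 si-NC and 3 si-SNHG17-1 libraries, grouped by title. The authors deposited 1 table of raw gene counts, whole numbers and not normalized. Reads were aligned with HISAT2 to GRCh38, per the submitters' processing notes; the counting program, annotation release and strand setting: not given in the sources used here. Genes with overlapping exons are uncertain.

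Counts were tested with edgeR 4.0.16 in R 4.3.3: filterByExpr (minimum count 10, minimum total 15), TMM, the quasi-likelihood F test without a block, and Benjamini-Hochberg adjustment over 18679 genes, called under 0.05. CPM are counts over TMM-scaled totals. The standard error is the absolute log2 fold change over the square root of F, and 95% intervals use the same error. No library was a copy of another: chi-square over degrees of freedom between replicates was 20.0 to 40.2. Exon lengths and overlaps came from GENCODE 29, upstream sequences from RefSeq. For C1R, CFI, CD55 and CD59 the identifier version or the coordinates in the count table differed from GENCODE 29. Their lengths may therefore not be those of the gene models counted. The fit was tested on simulated counts with 200 changed genes.

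The 9 genes and all lists were chosen with earlier results of these data known. Genes named were SNHG17, the 9 genes, up to 3 called genes per direction with the smallest adjusted p and at least 2 CPM from each other list, or its most abundant gene where none was called, and the 3 genes most like C3, CFB and CD55 with at least 10 CPM (for CD55 only the first is reported here). Genes outside this rule were chosen after their values were seen. They were C2, C1RL, MASP1, CLU, C5, STAT3, SOCS1, IL6ST, JAK2, LIF, OSMR, PIGT, PIGU, PIGK, DCN, PDGFRB, PECAM1 and those at 0 or low levels. Alternatives were total counts, size factors by median of ratios, no filter, 1 CPM in at least 3 libraries, DESeq2 1.42.0, limma-voom (limma 3.58.1), a replicate block, each library left out and another length.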

Additional observations from a re-analysis of the deposited data

How the results depend on the processing

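Over all genes, calls numbered 980 higher and 974 lower. With the replicate number as a block there were 273 and 259, with no filter 670 and 627, and with a library left out 313 to 694 and 264 to 705, where fewer libraries leave less to test with. With total counts only there were 1168 higher and 781 lower.

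Of the 9 genes, 1 was called lower (C3), but 0 with the replicate block (adjusted p = 0.0568) and 0 to 1 with a library left out. The number called higher was 2 with the block, 2 whichever library was left out and 4 with the filter of 1 CPM. The other complement genes called higher numbered 1 with no filter, 1 with the block and 1 whichever library was left out, and those called lower 1 with the block and 1 to 2 with a library left out. CD59 changed sign without si-NC replicate 1 (−0.13), si-SNHG17-1 replicate 1 (−0.06) or si-SNHG17-1 replicate 2 (−0.02), and reached 0.52 without si-NC replicate 3. With the longest transcript as length, 7 of 9 genes kept their rank. SNHG17 stayed called in all 13 alternatives (−1.53 to −1.47).

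Same-numbered libraries of the groups did not deviate together (correlations of −0.0172, −0.0367 and −0.0153), so no pairing by number was seen. These correlations cannot show whether such libraries were prepared together. Depth limits SERPING1 most, at 25 to 67 counts.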
